A study of Mus musculus with 6 samples.

Results

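The genes described here encode the proteins of the spliceosomal small nuclear ribonucleoproteins (snRNPs): the Sm and LSm ring proteins, the proteins particular to the U1, U2, U4/U6 and U5 snRNPs, the SF3A and SF3B subunits of the U2 snRNP, and the U2AF factor that brings U2 to the intron. They were taken by gene symbol from a list of 43 genes, of which 41 had a named probe set among the 24675 genes measured; Snrpd2 and Snrpg were not analysed here. The list was drawn up with ventral against dorsal results of these arrays known, among them those of Snrpd1 and Sf3b6, so the differences below describe these arrays. Tissue was cut by laser microdissection, which takes a chosen area out of a stained section, from unfixed, cryosectioned C57Bl/6 mouse embryos at embryonic day 10.5. The ventral group held 3 arrays of tissue from below the dorsal aorta, and the dorsal group held 3 arrays of tissue from above the aortic roof, up to the notochord. Both areas came from the same embryos and were picked by where they lie, with no transgene or treatment named, and the number of embryos behind a sample is not stated. Each sample entered amplification with a fraction of a nanogram of RNA.

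Splicing removes introns in steps. The U1 snRNP pairs with the start of an intron, U2AF marks its end, the U2 snRNP settles on the branch site, and the U4/U6.U5 tri-snRNP then joins and is rearranged into the active enzyme. Each snRNP is built around a small nuclear RNA that carries a ring of Sm proteins, or of LSm proteins in the case of U6. Every cell with a nucleus needs these proteins, and dividing, growing tissue is known to make many of them.

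Signals were summarised by RMA and are given as log2, so a difference of 1 is a factor of 2 between groups, and signals of different probe sets are not comparable as transcript amounts. The array medians over all genes lay between 3.20 and 3.24 in the ventral and between 3.24 and 3.27 in the dorsal arrays. The 41 genes had mean signals between 2.45 for Lsm1 and 11.2 for Snrpe. A mean above 5 was seen for 12 of them, or 29.3%, against 4.49% of all genes, and 9 lay below the median of all genes, where a signal was not shown to be above background. The groups overlapped for every notochord, ventral mesoderm and endothelial marker measured, so these markers gave little check of the labelled regions. Of the notochord and ventral mesoderm markers 0 lay below the median of all genes, and 4 of the endothelial markers did. The 3 notochord markers measured had means between 3.52 and 3.85, the 4 ventral mesoderm markers between 3.96 and 4.40, and the 6 endothelial markers between 2.57 and 3.78. Of the ventral mesoderm markers 0 of 4 had a higher ventral mean, with differences from -0.40 to -0.01, so they did not mark the ventral side. Of the 5 sclerotome markers, mesenchyme of the dorsal side, all had lower ventral means, from -1.40 for Twist1 to -0.02 for Pax1. Over all genes 14302 of 24675 had a lower ventral mean. The groups did not overlap for 3 of the 5 markers, beside 12% of all genes with dorsal higher. The farthest apart was Twist1, at 4.20, 5.71 and 5.46 in the ventral arrays, against 6.62, 6.37 and 6.57 in the dorsal arrays.

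The spliceosomal genes did not lie to one side as a set. Of the 41 genes 22 had a higher ventral and 19 a higher dorsal mean, against 42% of all genes with a higher ventral mean, and the median log2 difference, ventral minus dorsal throughout, was 0.02 against -0.06 over all genes. Without the arrays numbered 2 the median of the 41 was -0.14, without those numbered 3 it was -0.07, without dorsal replicate 3 it was -0.08, and without dorsal replicate 2 it was 0.11, so its sign was not stable. Among omissions of 1 array, dorsal replicate 3 was the one that turned it. The ventral and dorsal groups did not overlap, with ventral higher, for 4 of the 41 genes (Snrpd1, Snrpd3, Sf3b1 and Prpf4), beside 6.74% of all genes. They did not overlap, with dorsal higher, for 7 (Sf3b6, Lsm6, Lsm7, Snrpc, Phf5a, U2af2 and Prpf6), beside 12% of all genes. All 3 pairs of equal replicate number ran the same way with ventral higher for 10 genes, beside 13.3% of all genes, and with dorsal higher for 8, beside 21.8%. In bulk tissue, fewer cells of a type and less RNA per cell cannot be told apart.

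Limma, fitted to all 24675 genes with the replicate number as a block, called 0 of the 41 genes at an adjusted p of 0.05, beside 0% of all genes. At an unadjusted p under 0.05 it counted 6 of the 41 with ventral higher (Snrpd1, Snrpd3, Snrpn, Sf3b1, Lsm2 and Txnl4a), beside 4.32% of all genes, and 2 with dorsal higher (Sf3b6 and Lsm6), beside 5.9%. Since this comparison was known when the list was made, nothing is read from these counts. Together they were 8 genes, and 5 without ventral replicate 1 in a fit without the block.

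**Figure D1:**
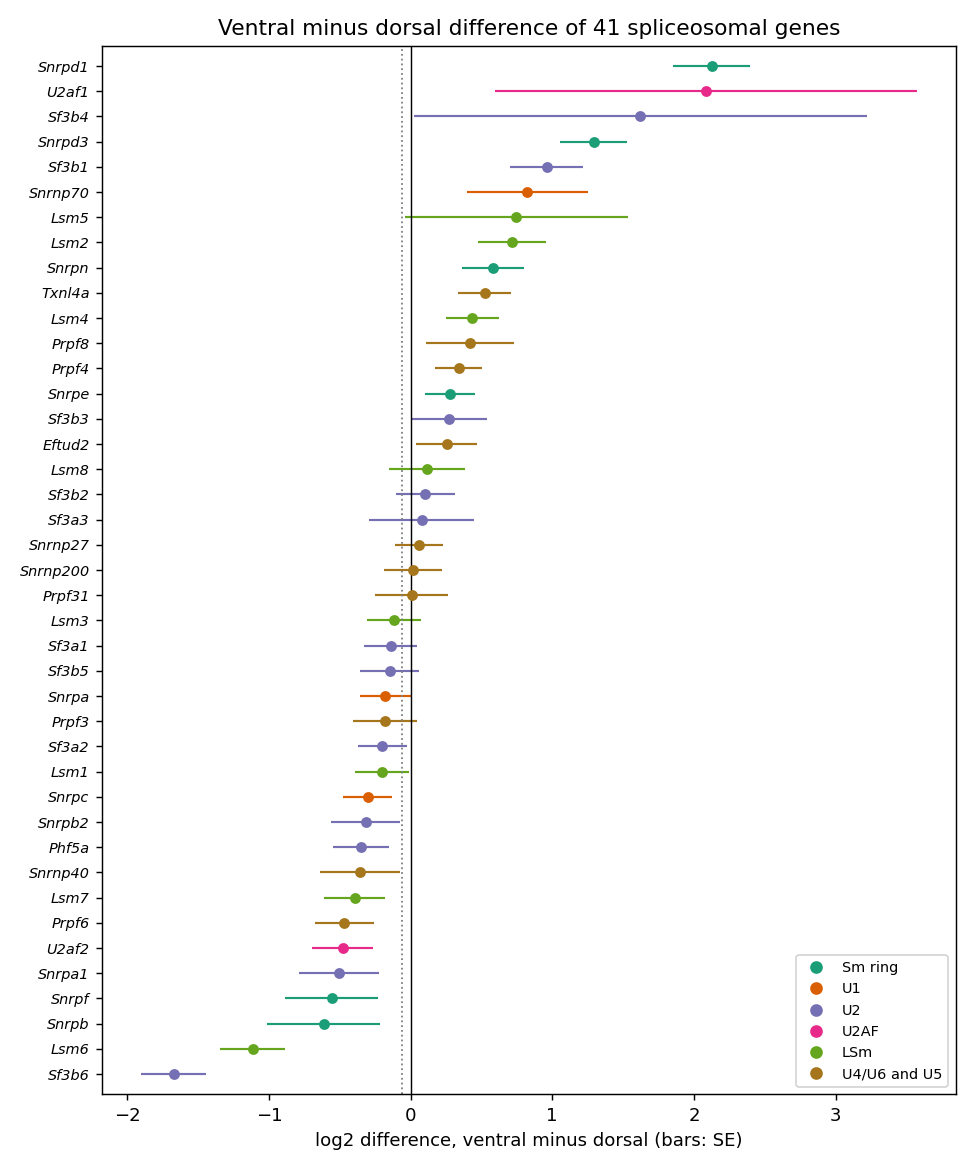
Log2 difference, ventral minus dorsal, of each of the 41 spliceosomal genes on the horizontal axis, with bars for the standard error and colours for the snRNP group; the solid line marks 0 and the dotted line the median of all genes, -0.06. Snrpd1 stands at the ventral-higher end with 2.13 and Sf3b6 at the dorsal-higher end with -1.67, and the bars of U2af1 and Sf3b4 are wider than those of the other genes.

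Among the Sm proteins, Snrpd1 and Snrpd3 were higher in ventral tissue. Snrpd1 encodes Sm D1, a constant part of the ring around the U1, U2, U4 and U5 RNAs. It had signals of 7.70, 6.70 and 7.15 in the ventral arrays, against 5.01, 5.27 and 4.89 in the dorsal arrays. Every ventral array lay above every dorsal array, and the means of 7.18 ± 0.50 and 5.06 ± 0.20 (SD, n = 3 each) differed by 2.13 ± 0.27 (SE), a 4.37-fold higher ventral level. Snrpd3 encodes Sm D3, which enters the ring as a pair with Sm B. Its signals were 5.10, 5.33 and 5.34 in the ventral arrays, against 3.41, 3.88 and 4.60 in the dorsal arrays. The ventral arrays were close together and the dorsal arrays spread over 1.19 log2 units, with no overlap and a difference of 1.29 ± 0.24.

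The groups of the other Sm genes measured overlapped, and their directions differed. Snrpb, which encodes the Sm B partner of Sm D3, had 5.05, 4.61 and 4.58 in the ventral arrays, against 6.55, 4.04 and 5.50 in the dorsal arrays. Its 3 ventral values lay inside the wide dorsal range, and the difference of -0.61 ± 0.40 was -0.02 without dorsal replicate 1 and -1.28 without dorsal replicate 2. Snrpn encodes Sm N, a near copy of Sm B that is made mainly in neurons and is expressed from the paternal allele. It had 5.10, 4.86 and 3.65 in the ventral arrays, against 4.50, 3.87 and 3.50 in the dorsal arrays, and the groups overlapped although each pair of equal number had the higher value on the ventral side (0.58 ± 0.22, and 0.30 without ventral replicate 1). In the gene table the Snrpn locus overlaps Snurf and Snhg14, and Snrpb and Snrpn are similar in sequence, so their signals are uncertain.

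Snrpe encodes Sm E, and had 11.46, 11.27 and 11.41 in the ventral arrays, against 11.22, 10.80 and 11.29 in the dorsal arrays. Ventral replicate 2 and dorsal replicate 3 lay at about the same level, and the groups overlapped. Each pair of equal number had the higher value on the ventral side, and the difference was 0.28 ± 0.18. Snrpf, which encodes Sm F and assembles with Sm E and Sm G, had 3.15, 2.92 and 3.11 in the ventral arrays, against 2.88, 4.31 and 3.67 in the dorsal arrays. The ventral arrays lay near the array median, 2 of the 3 dorsal arrays lay above them, and the difference of -0.56 ± 0.33 was -0.21 without dorsal replicate 2. The 6 Sm genes thus ran from -0.61 to 2.13, 4 of them higher in ventral tissue, with a median of 0.43.

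Of the proteins particular to the U2 snRNP, Sf3b6 was higher in dorsal tissue and Sf3b1 in ventral tissue. Sf3b6, also known as p14, is a small SF3B subunit that lies on the SF3B1 protein and contacts the branch site. It had 5.15, 5.27 and 5.32 in the ventral arrays, against 7.32, 6.89 and 6.55 in the dorsal arrays. The groups were far apart relative to their spread, at 5.25 ± 0.09 in ventral and 6.92 ± 0.38 in dorsal tissue, and the ventral level was lower by a factor of 3.19 (-1.67 ± 0.23). Sf3b1, the large scaffold that holds the branch site helix, had 5.17, 4.71 and 4.38 in the ventral arrays, against 3.58, 3.86 and 3.93 in the dorsal arrays. The groups did not overlap, with 4.38 as the lowest ventral and 3.93 as the highest dorsal value, and the difference was 0.96 ± 0.26. It was 0.65 without the arrays numbered 1.

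Lsm6 was the LSm gene with the greatest dorsal excess. Lsm6 takes part both in the nuclear ring at the end of U6 RNA and in the cytoplasmic ring that carries Lsm1 and acts in mRNA decay. It had 4.14, 4.90 and 5.37 in the ventral arrays, against 5.70, 6.04 and 5.99 in the dorsal arrays. The highest ventral value stayed below the lowest dorsal value, and the means of 4.80 ± 0.62 and 5.91 ± 0.18 differed by -1.11 ± 0.23, a factor of 2.16.

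**Figure D2:**
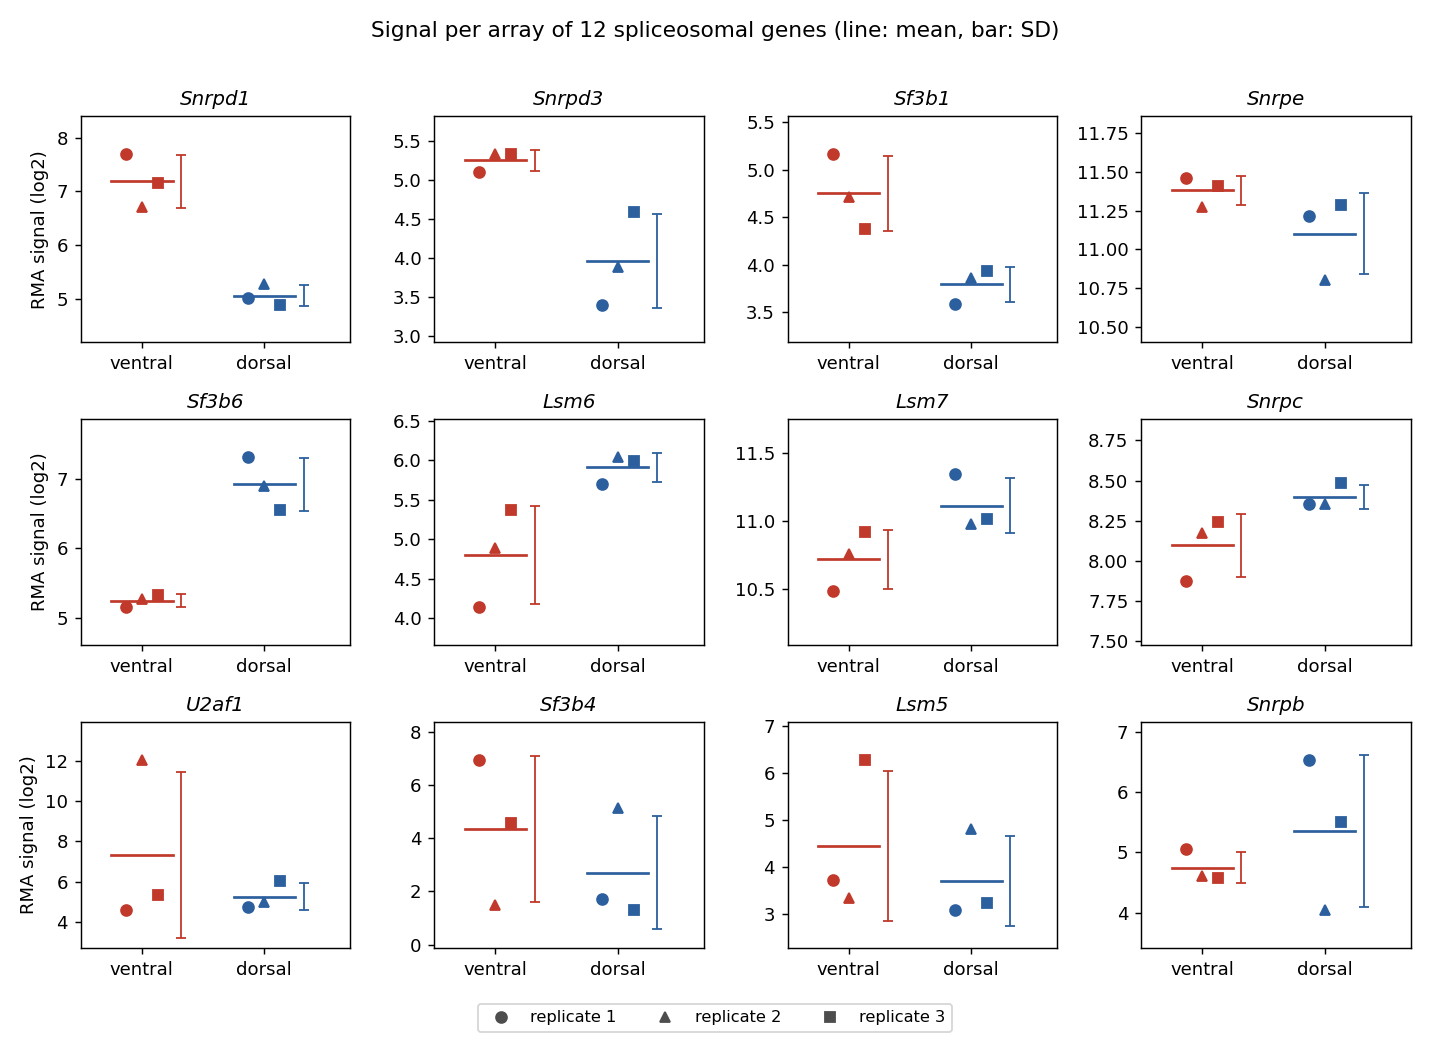
RMA signal (log2, vertical axes of different span) in each array of 12 spliceosomal genes, with ventral arrays on the left and dorsal arrays on the right of each panel, marker shape for the replicate number, a line for the mean and a bar for the SD. Snrpd1, Snrpd3 and Sf3b1 show ventral arrays above all dorsal arrays, Sf3b6, Lsm6, Lsm7 and Snrpc the reverse, and U2af1, Sf3b4 and Lsm5 have 1 array or a few far from the rest.

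The sequences upstream of the genes with non-overlapping groups and a difference near 1 log2 unit or more are shown, other than that of Snrpd1, which was not analysed here, because these genes differed in opposite directions, Snrpd3 and Sf3b1 with ventral higher and Sf3b6 and Lsm6 with dorsal higher. Each is the run of 250 bases before the annotated gene start, 5′ to 3′ on the strand of the gene, from RefSeq on GRCm38.p6. Capitals mark every match, on either strand, to the letters CCGGAAG, which ETS factors bind, to GGGCGG, the GC box that Sp1 binds, to CCAAT, which NF-Y binds, to TATAAA, the TATA box, or to TGACGTCA, the cyclic AMP response element.
Snrpd3, chr10:75517792-75518041, plus strand: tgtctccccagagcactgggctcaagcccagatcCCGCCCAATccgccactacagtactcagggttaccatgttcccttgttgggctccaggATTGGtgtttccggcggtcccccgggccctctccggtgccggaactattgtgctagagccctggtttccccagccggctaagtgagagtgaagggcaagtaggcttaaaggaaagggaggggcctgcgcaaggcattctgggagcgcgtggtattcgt
Sf3b1, chr1:55027479-55027728, minus strand: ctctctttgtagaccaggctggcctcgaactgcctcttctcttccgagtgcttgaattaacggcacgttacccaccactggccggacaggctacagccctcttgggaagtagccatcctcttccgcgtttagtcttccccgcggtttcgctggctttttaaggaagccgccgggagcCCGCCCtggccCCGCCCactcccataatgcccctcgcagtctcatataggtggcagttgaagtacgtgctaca
Sf3b6, chr12:4817358-4817607, plus strand: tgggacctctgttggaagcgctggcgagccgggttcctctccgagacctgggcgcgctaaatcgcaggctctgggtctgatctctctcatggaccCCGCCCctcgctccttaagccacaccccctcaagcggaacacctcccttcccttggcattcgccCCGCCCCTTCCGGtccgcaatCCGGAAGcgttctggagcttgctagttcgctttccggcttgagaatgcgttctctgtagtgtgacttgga
Lsm6, chr8:78821153-78821402, minus strand: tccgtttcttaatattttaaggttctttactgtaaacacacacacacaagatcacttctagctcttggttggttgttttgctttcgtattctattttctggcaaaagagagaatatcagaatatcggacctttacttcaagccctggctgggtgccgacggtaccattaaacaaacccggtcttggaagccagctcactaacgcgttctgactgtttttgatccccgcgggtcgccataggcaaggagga
The Sf3b6 window held a pair of ETS matches, beginning 85 and 70 bases before the start, and a pair of GC boxes at 155 and 91. The Snrpd3 window held a GC box 216 bases before the start, which shares 2 bases with an NF-Y match at 212, and a further NF-Y match at 158. The Sf3b1 window held GC boxes at 73 and 62 bases before the start, and the Lsm6 window held none of the motifs.

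The gene start windows were available for 30 of the 41 genes, and the ETS letters were the motif that these genes carried most in excess of the background. They stood in 12 of the 30 windows, or 40.0%, against 10.6% of 15935 measured protein-coding genes and 7.83% of all 27025 genes with a window. A GC box was found in 60.0%, against 48.2% of measured protein-coding and 35.4% of all genes, and the NF-Y letters in 33.3%, against 39.4% and 37.5%. TATA boxes were found in 10.0%, against 13.2% and 14.3%, and the cyclic AMP response element in 6.67%, against 2.30% and 1.77%. Of the 12 genes with the ETS letters 6 had a higher ventral and 6 a higher dorsal mean (median -0.06), and of the 18 without them 11 and 7 (median 0.20). A match describes letters only and was not tested for binding.

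The other U2 snRNP genes ran from -0.51 for Snrpa1 to 1.62 for Sf3b4. Sf3b4, an SF3B subunit that contacts the RNA just upstream of the branch site, had 6.95, 1.48 and 4.57 in the ventral arrays, against 1.71, 5.13 and 1.29 in the dorsal arrays. Its 6 values formed a high and a very low level that occurred on both sides, so the difference of 1.62 ± 1.60 was about the size of its error. It was 4.26 without the arrays numbered 2, -0.19 without those numbered 1 and 0.79 without those numbered 3. Snrpa1 encodes the U2 A′ protein, and had 3.61, 3.67 and 3.42 in the ventral arrays, against 4.88, 3.66 and 3.68 in the dorsal arrays. Dorsal replicate 1 alone stood clear of the rest, and the difference of -0.51 ± 0.28 was -0.10 without it.

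Snrpb2, the U2 B″ protein that binds U2 RNA together with U2 A′, was at 5.55 ± 0.64 in ventral and 5.87 ± 0.15 in dorsal tissue, with overlapping arrays. Phf5a, which forms the branch site pocket together with Sf3b1, was at 2.50 ± 0.08 and 2.85 ± 0.26, below the array medians on both sides. The SF3A subunits, which tie SF3B to the core of the U2 snRNP, had differences of -0.14 for Sf3a1, -0.20 for Sf3a2 and 0.08 for Sf3a3. Sf3b2, Sf3b3 and Sf3b5, further SF3B subunits, had 0.10, 0.27 and -0.15, and the arrays of these 6 genes overlapped between groups. In all, 5 of the 12 U2 genes had a higher ventral mean, with a median of -0.14.

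U2af1 gave the widest spread of the whole set. It encodes the small U2AF subunit, which reads the AG at the end of an intron. It had 4.56, 12.08 and 5.34 in the ventral arrays, against 4.74, 4.98 and 6.01 in the dorsal arrays. Ventral replicate 2 stood 6.07 log2 units above the next highest array and near the top signal of its own array, 12.64, while the other 5 arrays were between 4.56 and 6.01 and overlapped between groups. The difference of 2.08 ± 1.49 rests on this array, and was -0.42 without the arrays numbered 2. U2af2 encodes the large subunit, which binds the pyrimidine tract, and had 2.99, 2.96 and 3.14 in the ventral arrays, against 3.15, 3.89 and 3.49 in the dorsal arrays. The groups touched without overlapping, at a signal close to the array medians, and the difference of -0.48 ± 0.21 was -0.29 without dorsal replicate 2.

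**Figure D3:**
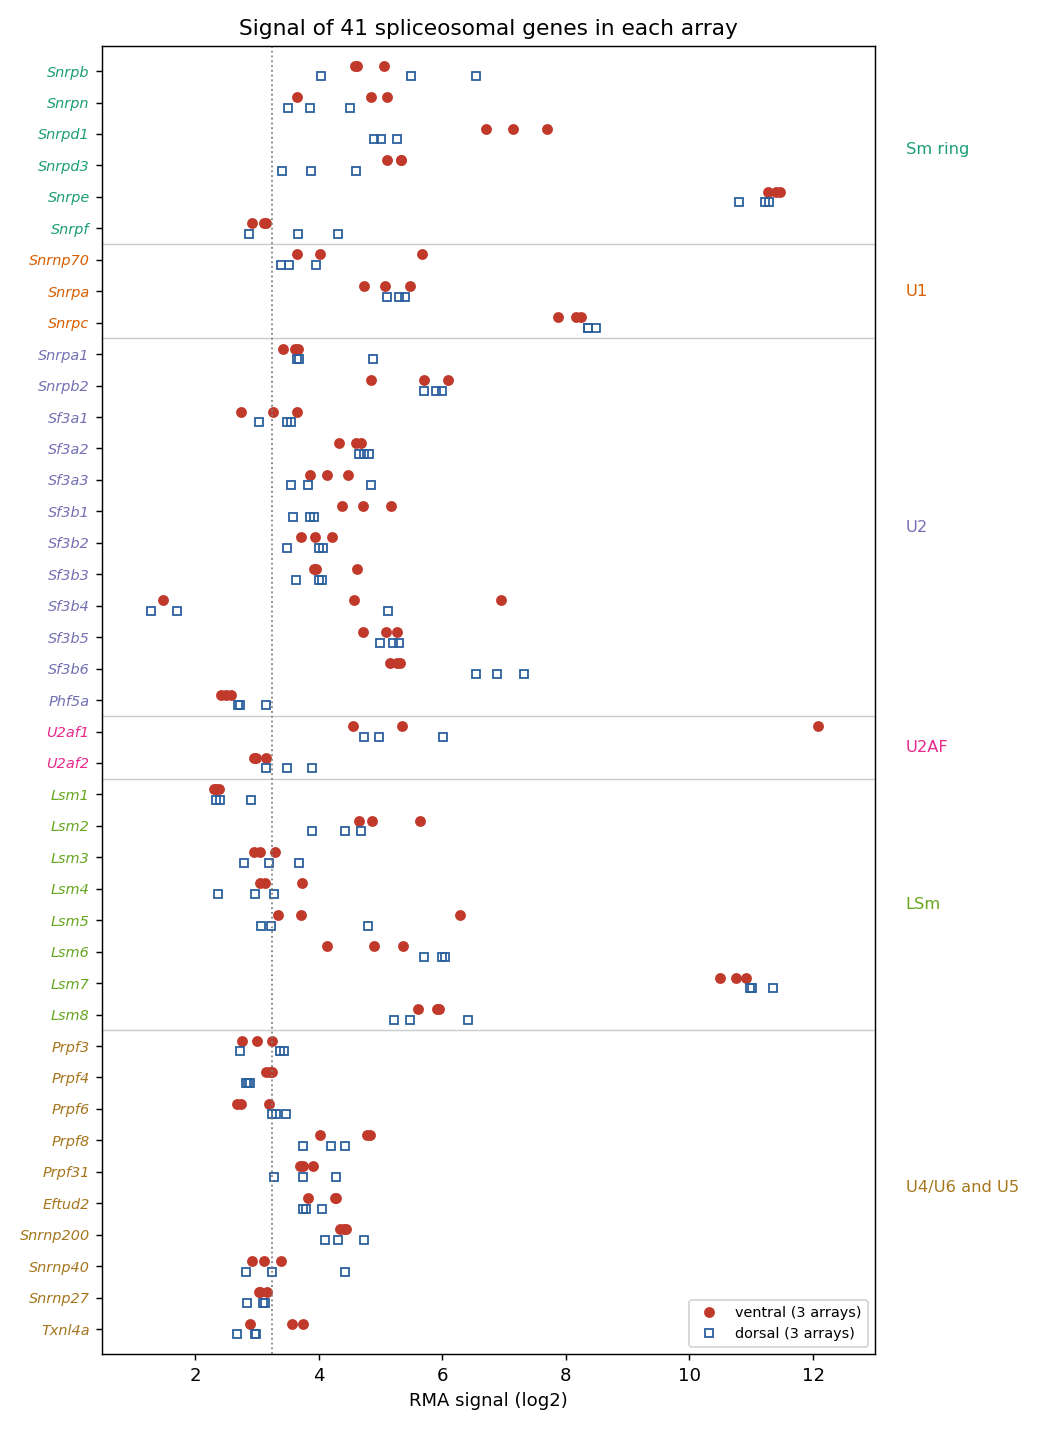
RMA signal (log2, horizontal axis) of the 41 spliceosomal genes in the 3 ventral arrays (filled circles, upper line of each row) and the 3 dorsal arrays (open squares, lower line), grouped by snRNP; the dotted line is the median over all genes, 3.24. U2af1 reaches 12.08 in 1 ventral array, Sf3b4 ranges from 1.29 to 6.95, and the U4/U6 and U5 genes lie in a narrow band between 2.67 and 4.84.

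The U1 genes did not share a direction. Snrnp70 encodes the U1 70K protein, which binds U1 RNA and docks SR proteins, and had 5.68, 4.02 and 3.65 in the ventral arrays, against 3.52, 3.95 and 3.40 in the dorsal arrays. Ventral replicate 1 stood apart, the other arrays overlapped, and the difference of 0.82 ± 0.43 was 0.21 without it. Snrpc encodes U1 C, which steadies the pairing of U1 with the start of the intron, and had 7.87, 8.17 and 8.24 in the ventral arrays, against 8.36, 8.36 and 8.48 in the dorsal arrays. The groups did not overlap, yet the difference was small, -0.30 ± 0.17. Snrpa, the U1 A protein, was at 5.09 ± 0.37 in ventral and 5.27 ± 0.15 in dorsal tissue, with overlapping arrays.

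In the LSm rings, 4 of the 8 genes had a higher ventral and 4 a higher dorsal mean, with a median of -0.00. Lsm7, present in both rings, had 10.49, 10.75 and 10.92 in the ventral arrays, against 11.35, 10.98 and 11.01 in the dorsal arrays. The groups did not overlap, but the highest ventral and the lowest dorsal array were at nearly the same signal, and the difference was -0.39 ± 0.22, or -0.16 without the arrays numbered 1. Lsm5, also a member of both rings, had 3.72, 3.34 and 6.29 in the ventral arrays, against 3.07, 4.80 and 3.23 in the dorsal arrays. An array on each side stood above the rest, and the difference of 0.75 ± 0.79 was 1.85 without the arrays numbered 2 and -0.41 without those numbered 3.

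Lsm2, the neighbour of Lsm3 in both rings, was at 5.05 ± 0.52 in ventral and 4.33 ± 0.40 in dorsal tissue, a difference of 0.72 ± 0.24 with overlapping arrays, or 0.42 without ventral replicate 1. Lsm4, whose tail takes part in cytoplasmic decay bodies, was at 3.31 ± 0.38 and 2.87 ± 0.47 (0.44 ± 0.19, and 0.18 without dorsal replicate 2). Lsm1 marks the cytoplasmic ring and Lsm8 the nuclear ring, and neither separated the sides, with -0.20 ± 0.19 for Lsm1 and 0.12 ± 0.27 for Lsm8. Lsm3 had -0.12 ± 0.19.

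The tri-snRNP proteins formed the group with the smallest differences, from -0.47 to 0.52 over 10 genes, of which 7 had a higher ventral mean. Their mean signals were between 3.03 and 4.39, and 5 lay below the median of all genes. Prpf4, a partner of Prpf3 on the U4/U6 duplex, had 3.24, 3.21 and 3.15 in the ventral arrays, against 2.82, 2.90 and 2.86 in the dorsal arrays. This was the tightest pair of groups in the set, with no overlap and a difference of 0.34 ± 0.17, at a signal around the array medians. Prpf6, which bridges U5 and U4/U6, had 2.74, 3.19 and 2.68 in the ventral arrays, against 3.31, 3.24 and 3.46 in the dorsal arrays, a difference of -0.47 ± 0.21 without overlap.

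Txnl4a, a thioredoxin-like U5 protein, was at 3.40 ± 0.45 in ventral and 2.88 ± 0.18 in dorsal tissue (0.52 ± 0.19), with overlapping arrays. The large U5 proteins at the heart of the enzyme had overlapping arrays. Prpf8, the scaffold of the active site, had 0.42 ± 0.31, Eftud2, its GTPase partner, 0.25 ± 0.22, and Snrnp200, the helicase that unwinds U4 from U6, 0.02 ± 0.21. Prpf31, which clamps the U4 RNA, had 0.01 ± 0.26 and Prpf3 -0.18 ± 0.23, while Snrnp40 of U5 had -0.36 ± 0.28, or 0.11 without dorsal replicate 1, and Snrnp27 of the tri-snRNP 0.06 ± 0.17. The 95% interval of the difference ran from -0.34 to 1.18 for Prpf8 and from -0.29 to 0.79 for Eftud2. For Snrnp200 it ran from -0.49 to 0.53 and for Prpf31 from -0.63 to 0.65.

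The direction differed between ranges of signal within the set. Among the 12 genes with a mean of 5 or more, 4 had a higher ventral mean and the median was -0.24, against 623 of 1108 genes and 0.08 over all genes of that range. Among the 11 genes with a mean between 4 and 5, 10 had a higher ventral mean and the median was 0.58, against 1850 of 3483 and 0.03. Among the 18 dimmer genes 8 had a higher ventral mean and the median was -0.13, against 7900 of 20084 and -0.08. These bounds were picked with earlier results known, and the pattern is a description of 41 genes. The mean is taken over both groups, so a gene can enter a range through its ventral arrays. In the range between 4 and 5, Snrnp70, Lsm5, Sf3b1, Sf3b3, Snrpn and Snrpd3 had dorsal means below 4, from 3.62 to 3.96. Their ventral means lay above 4, and in the other genes of this range both means did. The part of this grouping in the ventral lean was not tested.

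Spread within a group was uneven. A range above 2 log2 units inside 1 group of 3 arrays occurred in 5 of the 41 genes (12.2%; U2af1, Sf3b4, Lsm5, Snrpb and Snrnp70), against 2.87% of all genes. Among genes with a mean of 5 or more it occurred in 2 of 12 spliceosomal genes (16.7%), against 19.3% of all such genes. With a mean between 4 and 5 it occurred in 2 of 11 (18.2%), against 5.86%. Below 4 it occurred in 1 of 18 (5.56%), against 1.44%. The median SD of a gene was 0.26 in the ventral and 0.32 in the dorsal arrays for the 41 genes, against 0.18 and 0.26 over all genes. Across the 41 genes Pearson correlations were 0.745 to 0.915 between ventral arrays, 0.893 to 0.959 between dorsal arrays, and 0.777 to 0.932 between a ventral and a dorsal array. Genes are not independent replicates, so these correlations only describe the arrays.

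Other genes of the splicing pathway, listed with earlier results of these arrays known and not for how they moved, were spread about 0 as well. Of 94 such genes 90 were measured, 48 with a higher ventral mean, and their median was 0.03. Limma called 0 of them at an adjusted p of 0.05, and 10 with ventral and 4 with dorsal higher had an unadjusted p under 0.05, beside 4.32% and 5.9% of all genes. Among factors that assemble the Sm ring, 7 of 17 had a higher ventral mean. Gemin6, part of the SMN complex that loads Sm proteins onto RNA and itself built on an Sm-like fold, had 4.72, 4.58 and 5.11 in the ventral arrays, against 2.95, 3.56 and 3.67 in the dorsal arrays. Its groups did not overlap and the difference was 1.41 ± 0.21. The dorsal mean was 3.39, so Gemin6 met the signal limit for naming, a mean above 4, only through its ventral arrays.

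Wdr77, the partner of the methylase that modifies the tails of Sm D1, D3 and B, had 7.36, 6.07 and 4.68 in the ventral arrays, against 4.20, 4.93 and 4.97 in the dorsal arrays. Here the groups overlapped through ventral replicate 3, with a difference of 1.34 ± 0.61, or 0.68 without ventral replicate 1. Smn1, the core of the SMN complex, lay on the dorsal side with -0.63 ± 0.21, with overlapping arrays. The methylase Prmt5 itself had -0.00 ± 0.19, and was picked after its value was seen.

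Of the tri-snRNP and minor spliceosome factors, 5 of 14 had a higher ventral mean, with 0.63 for Ppih, a cyclophilin of the U4/U6 snRNP, -0.32 for Dhx15, the helicase that releases the spent intron, and -0.26 for Sart1, a tri-snRNP protein. Of the Prp19 and catalytic step factors it was 13 of 22, with 0.70 for the kinase Prpf4b, 0.52 for Cdc40, a second-step factor, and -0.63 for Snw1, the arrays of Cdc40 and Snw1 not overlapping. SR proteins, which bind exons and recruit U1 and U2AF, were higher in ventral tissue for 9 of 15, with 0.95 for Srsf11, whose arrays did not overlap, 0.72 for Srsf1 and 0.65 for Srsf2. Srsf1 had 6.57 in ventral replicate 1, against 3.97 to 4.72 in the other 5 arrays, and its difference was -0.06 without that array.

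The other LSm-type genes were higher in ventral tissue for 2 of 6, with -0.40 for Lsm10, an LSm protein of the U7 snRNP in histone mRNA processing, 0.37 for Lsm14a and -0.16 for Lsm12. Both of the smaller differences turned without dorsal replicate 1, to -0.24 for Lsm14a, which had 4.71 in that array and 6.21 to 6.55 in the other 5, and to 0.34 for Lsm12. The hnRNP genes, whose products coat nascent transcripts, were higher for 12 of 16 and had a median of 0.20. Hnrnpa0 ran against them, with 4.75, 4.49 and 4.58 in the ventral arrays, against 5.40, 5.74 and 5.81 in the dorsal arrays (-1.05 ± 0.20). Hnrnpu had 0.80 and Hnrnpd 0.79, the arrays of Hnrnpu without overlap.

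**Figure D4:**
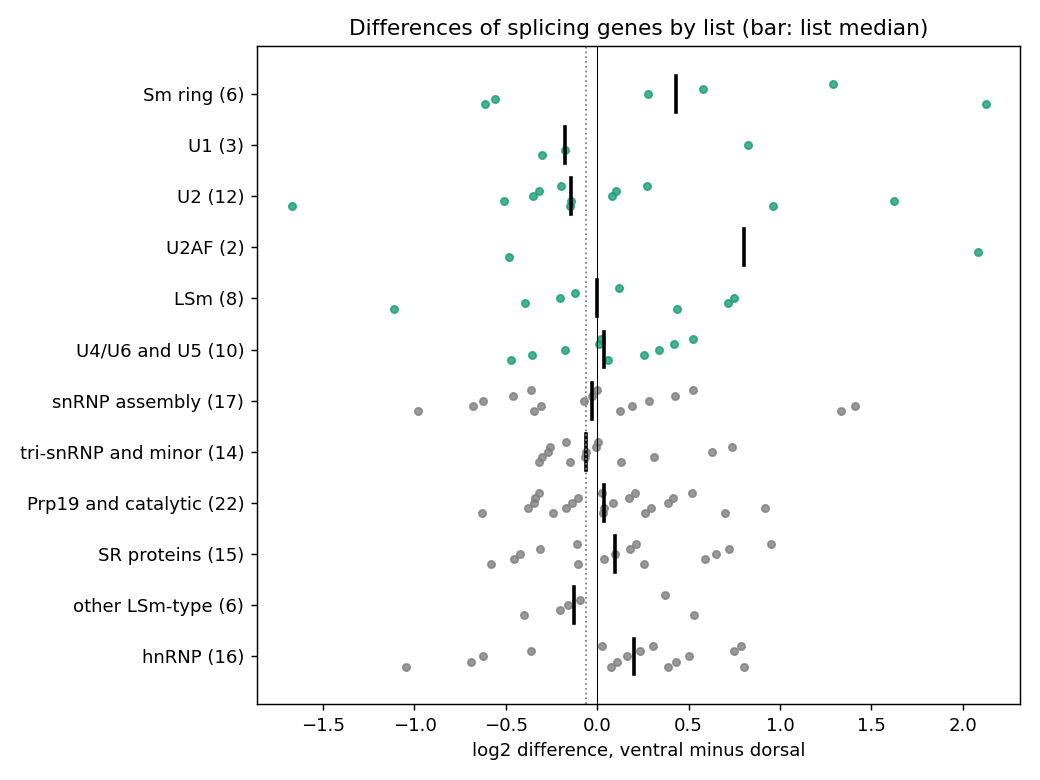
Log2 difference, ventral minus dorsal (horizontal axis), of each measured gene in the 6 snRNP groups (green) and in 6 lists of other splicing genes (grey), with the number of genes in brackets, a black bar for the list median, a solid line at 0 and a dotted line at the median of all genes, -0.06. Most lists have medians between -0.18 and 0.20, the Sm genes have 0.43 over 6 genes, and U2AF has 0.80 over its 2 genes with the high array of U2af1 included.

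Most markers of dividing cells had higher ventral means. The summed log2 signal of 13 measured cell cycle markers was between 64.6 and 68.0 in the ventral arrays and between 53.6 and 59.5 in the dorsal arrays, and 10 of the 13 had a higher ventral mean. Pcna, a clamp of DNA replication, had the widest gap, at 10.61, 10.25 and 10.62 in the ventral arrays, against 9.19, 1.43 and 7.95 in the dorsal arrays. Without Pcna, left out after its values were seen, the sums were between 54.3 and 57.4 in the ventral and between 49.5 and 52.2 in the dorsal arrays. The mitotic kinases Aurkb and Plk1 ran the other way, with higher dorsal values and no overlap. The highest ventral and lowest dorsal values nearly met, at 4.20 and 4.26 for Aurkb and 3.20 and 3.22 for Plk1. Plk1 lay near the array medians apart from 4.75 in dorsal replicate 1. The summed log2 signal of 7 erythroid markers, 4 of them with a higher ventral mean, was between 39.7 and 58.5 in the ventral and between 45.3 and 54.9 in the dorsal arrays, so the groups overlapped widely, and that of 5 macrophage markers was between 19.5 and 21.7 and between 19.0 and 20.0. Of the 5 neural markers, Sox2 reached 7.61 in ventral replicate 1, against 2.20 to 2.73 in the other 5 arrays. Nes was also highest in that array, at 5.29. Tubb3 was highest in dorsal replicate 3, Elavl3 in dorsal replicate 1 and Sox10 in ventral replicate 3. Of the 41 spliceosomal genes 12, Snrnp70 among them, were highest in ventral replicate 1, against 2 to 9 in each of the other arrays. In the same array 8 of the 41 were lowest, against 2 to 11 in each of the others. These counts were not made over all genes, so nothing is read from them. The part of these cell types in the differences of the spliceosomal genes was not tested.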

How the data were processed

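Affymetrix mouse Gene 2.0 ST arrays were run on 3 ventral and 3 dorsal samples, and their groups were taken from the sample titles. The deposited log2 values, 1 per probe set and array, were made by the authors with Affymetrix Expression Console and RMA, per the submitters' processing notes, which give no versions; the log base was taken from the values. The table held 25429 probe sets and 0 missing values. Of these, 24675 had exactly 1 gene symbol, none had several, and 754 stay unnamed. Scan dates, detection calls and probe-level values were not used here, and no genome build is stated for the probe sets.

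The members and the gene lists were chosen with earlier results of these data known. Ventral was compared with dorsal in limma 3.58.1 under R 4.3.3 (lmFit and eBayes, two-sided, Benjamini-Hochberg adjustment over all 24675 genes), without a filter on dim genes and with the replicate number as a block, because, per the labels' protocols, ventral and dorsal tissue was cut from the same embryos. The labels do not say that equal numbers mean the same embryo, and deviations from the group means correlated at 0.0389, -0.0136 and 0.0575 over genes for numbers 1, 2 and 3, so the pairing is uncertain. A p-value here reflects only how far these samples vary, and 3 arrays a group limit the precision. Values in every array are given for the Sm genes, the 6 members with the greatest difference in each direction, the 5 with the highest signal, the 5 with the widest range within a group, and a few others whose groups did not overlap. From each list of other splicing genes up to 3 members with a mean above 4 are named by size of difference. That mean is over all 6 arrays, so a gene can pass through 1 side alone, and the named genes do not stand for their lists. The fit was also run on simulated data with independent normal noise in each array. Those data held no replicate effect and no jumps of single arrays, so they do not show how the fit behaves here. Alternatives were no block, cyclic loess, median centring, filters on dim genes, a variance trend and leaving out arrays.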

Additional observations from a re-analysis of the deposited data

How the results depend on the processing

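Limma called 0 of 24675 genes with the block (lowest adjusted p 0.197, with 2522 genes at an unadjusted p under 0.05) and 1 gene without the replicate block, which is no spliceosomal gene; leaving out both arrays of a number gave 0 to 5, and leaving out single arrays without the block 0 to 3 (3 without dorsal replicate 3, ventral replicate 1 or ventral replicate 2, and 1 without ventral replicate 3). None of the 41 spliceosomal genes was called under any of the 15 alternatives, where their lowest adjusted p in limma was 0.106, against 0.239 with the block. The fit without the block changed no call of a member. The number of members with an unadjusted p under 0.05 was 8, and 5 to 10 when arrays were left out, with the 5 reached without ventral replicate 1. Their median difference of 0.02 ranged from -0.14 to 0.016 without both arrays of a number, and was 0.11 without dorsal replicate 2 and -0.079 without dorsal replicate 3, and the number with a higher ventral mean from 17 to 22. Cyclic loess and median centring moved the median of all genes from -0.06 to -0.00 and -0.02, and left the median of the members at 0.02 and 0.06. Of the 17 members named by rule, 14 kept their sign under all 15 alternatives. Dropping the block, filtering dim genes and the variance trend cannot change a gene's difference with 3 arrays in each group. Only the other normalisations and the omission of arrays could therefore turn a sign. The signs of U2af1 (lowest value -0.42), Sf3b4 (-0.19) and Lsm5 (-0.41) turned when arrays were left out, and Snrpb kept its sign at -0.02 without dorsal replicate 1. Over all 41 members, 14 changed sign when some single array was left out. Snrpd1 ranged from 1.85 to 2.47, Snrpd3 from 1.02 to 1.61, Sf3b6 from -1.89 to -1.42 and Lsm6 from -1.40 to -0.78. Signals near the array medians were not shown to be above background, which limits the differences of the dim members.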
